A study of Mus musculus with 6 samples.

Results

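The cells described here carried the label T cell Naive in the deposited cell annotation of a single-cell mRNA-seq experiment on tumors of CT26, a colon carcinoma line of the mouse. The hosts were female Balb/c mice. Members were all cells with that label, 55 of the 33961 cells in the table (0.162%, exact 95% binomial interval 0.122 to 0.211). The series labels name 6 samples in 3 groups of 2: vehicle, low dose and high dose, the agent being an anti-PD-1–GITR-L bispecific antibody, which blocks the inhibitory receptor PD-1 (Pdcd1) and engages the costimulatory receptor GITR (Tnfrsf18). By the labels the high dose was 30 mg/kg, and the low dose stood at 10 mg/kg in the treatment description but at 30 mg/kg among the sample characteristics, while the study's text names a different dose for this experiment. Tumors were taken 5 days after treatment, dissociated and enriched for CD45+ leukocytes by bead selection, so all groups shared the tumor, the strain and the enrichment. The table holds 4 library labels, M1, M2, M5 and M6, in which order values by library are listed, and none of them names a sample or a treatment. The treatment groups were therefore not compared, libraries are given one by one and were not treated as replicates, and no value below has a p.

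Naive T cells are mature T cells that have not yet met their antigen. They circulate between blood and lymphoid organs, entering lymph nodes with the help of the chemokine receptor Ccr7 and leaving them with the sphingosine phosphate receptor S1pr1, while interleukin-7 received through Il7r keeps them alive. The transcription factors Tcf7, Lef1, Klf2, Foxp1 and Satb1 are part of this resting state, and stimulation by antigen replaces it with cytokines, granzymes, inhibitory receptors and division. In a tumor such cells are usually few beside cells that have met antigen.

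The library M1 held 10 of the 55 cells, M2 held 13, M5 held 11 and M6 held 21. As a share of a library's cells, M1 had 0.0971% (0.0466 to 0.179), M2 0.145% (0.0775 to 0.249), M5 0.154% (0.0767 to 0.275) and M6 0.278% (0.172 to 0.424). The share was highest in M6, and its interval overlapped those of M2 and M5 and just reached that of M1. Among the 5851 cells with any T cell label (T cell EFF, T cell MEM, T cell Naive, T cells and NKT), the cells made up 0.94% (0.709 to 1.22), from 0.595% in M5 to 1.28% in M6.

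Depth limits what can be seen in so few cells. A UMI (unique molecular identifier) counts 1 captured RNA molecule. The 55 cells held 217683 UMIs in sum, from 1894 to 8339 per cell with a median of 3717. Median UMIs per cell were 4492 in the cells labelled T cells, 6280 in T cell MEM and 10049 in T cell EFF, so the naive cells were the shallowest of these labels. A level below is a gene's summed UMIs scaled to counts per 1000000 summed UMIs of the label (CPM), 1 UMI in the 55 cells being 4.59 CPM, and intervals after CPM values are exact 95% Poisson intervals on the UMIs. All intervals cover counting error only. Of 33850 distinct barcodes 111 occurred in more than 1 library, none of them among the naive cells. No naive cell had a scrublet doublet score over 0.25 and 1 had over 10% mitochondrial UMIs.

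The label was checked first against the markers Il7r, Cd4 and Cd247, the zeta chain of the T cell receptor complex. A UMI of Il7r was found in 45 of the 55 cells, of Cd4 in 30 and of Cd247 in 28. Every one of the 55 cells held a UMI of a CD3 chain (Cd3d, Cd3e or Cd3g). Shares depend on depth, so every cell was also thinned at random to 1000 UMIs. After thinning Il7r was present in 50.9% of the naive cells (37.1 to 64.7), in 39.4% of T cells, 30.9% of T cell MEM, 15.3% of T cell EFF and 2.42% of B cells, which should lack it and had a median of 2811 UMIs before thinning. Cd4 was present in 21.8% of the naive cells (11.8 to 35.0), 22.7% of T cells, 7.55% of T cell MEM, 1.98% of T cell EFF and 0 of 124 B cells. Cd247 was present in 18.2% (9.08 to 30.9), 13.3%, 13.1% and 10.1% of the 4 T cell labels in the same order and in 0 of 124 B cells. The naive cells thus carried the T cell receptor complex. The interval of Il7r lay above those of T cell MEM and T cell EFF but overlapped that of T cells, and the interval of Cd247 overlapped those of all 3 labels. The authors' labels came from the highest correlation with reference profiles, so expression helped to make the label and the differences between labels below are descriptions.

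Each of the 15 genes of the naive and recirculation list had a higher CPM in the naive cells than in T cell EFF, T cell MEM, T cells and NKT, though not always by much. All 15 had at least 1 UMI in the naive cells, and 11 had enough UMIs for a fold change (at least 20 in the naive cells, or 20 expected there at the other label's level). Bach2, Dapl1, Nsg2 and Treml2 fell below that limit, with 19, 7, 6 and 9 UMIs. A gene was called where its CPM differed at least 2-fold. Against T cell EFF all 11 were higher, where 13.6% of all 1983 genes examined were. Against T cell MEM 9 of 11 were higher, where 5.36% of 1885 genes were, and against T cells 7 of 11, where 2.51% of 1876 genes were. The median log2 fold of the 11 genes was 3.23 over T cell EFF, 2.19 over T cell MEM and 1.65 over T cells, beside medians of -0.05, -0.01 and -0.10 over all genes examined. These counts and medians leave out the 4 genes below the limit and are partly fixed by it: 6 of the 11 genes against T cell EFF, the same 6 against T cell MEM, and 4 against T cells passed only through the naive cells, where they are high. Among the members that passed in both labels 5 of 5 were called higher than in T cell EFF, 3 of 5 than in T cell MEM and 3 of 7 than in T cells. Ccr7, S1pr1, Il7r and Foxp1 did not reach 2-fold over T cells, nor Ccr7 and Il7r over T cell MEM. The same holds for every fold below: a gene called lower with under 20 UMIs in the naive cells was examined only through the other label, and a gene called higher that stood under 91.9 CPM (20 UMIs in the naive cells) in the other label only through the naive cells. The 3 comparisons share the same 55 cells. The lists were chosen with earlier results of these data known, so list counts set beside the share of all genes are descriptions.

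Klf2, a zinc finger factor that maintains S1pr1 expression, had 322 UMIs in 49 of the 55 cells. Its CPM was 1465, 2268, 929.5 and 1359 in M1, M2, M5 and M6, and 1479 over all naive cells (1322 to 1650). The level was 2.21-fold that of T cells (669 CPM), 4.55-fold that of T cell MEM (325 CPM) and 9.39-fold that of T cell EFF (157 CPM), and in each of the 4 libraries the naive cells were above all of these labels. The call over T cells was lost under 3 alternatives, at log2 folds of 0.87 to 0.96. The gene lies at chr8:72319033-72321656 in GRCm38. Satb1, a chromatin organizer of developing and resting T cells, was found in 42 cells at 967.5, 1113, 791 and 1080 CPM in M1, M2, M5 and M6. Its levels were close to each other in the 4 libraries and 3.92-fold higher than in T cells, 2.36-fold higher than in T cell MEM and 3.75-fold higher than in T cell EFF.

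Tcf7 (TCF-1, chr11:52252371-52283014) and Lef1 (chr3:131110471-131224356) are paired factors of naive and stem-like T cells, and 43 of the 55 cells held a UMI of at least one of them. Tcf7 stood at 442, 371, 336 and 267 CPM in M1, M2, M5 and M6, with 335 CPM overall (263 to 422). T cells had 107 CPM, T cell MEM 67.6 and T cell EFF 14.8, a 22.7-fold difference for the last. Lef1 stood at 387, 412, 198 and 158 CPM in M1, M2, M5 and M6, with 262 CPM overall (198 to 339). It was 3.56-fold higher than in T cells, 4.89-fold higher than in T cell MEM and 13.8-fold higher than in T cell EFF. Both genes were above each of the 3 labels in all 4 libraries, and the level of Lef1 was lower in M5 and M6 than in M1 and M2.

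S1pr1 and Ccr7, receptors of lymph node traffic, differed in how far they set the naive cells apart. S1pr1 had 470.0, 598, 257 and 255 CPM in M1, M2, M5 and M6. Its overall 367 CPM (291 to 457) was 39.4-fold that of T cell EFF and 5.10-fold that of T cell MEM, but 1.40-fold that of T cells. Ccr7 had 912, 907, 613 and 788.5 CPM in M1, M2, M5 and M6, and its 795 CPM (681 to 922) were 2.21-fold, 1.83-fold and 1.37-fold the levels of the same labels. Against T cells neither reached 2-fold, and the naive cells were above T cells in 3 libraries for S1pr1 and in all 4 for Ccr7. Ccr7 was found in 43 of the 55 cells. Its call over T cell EFF was lost without M1 and without M2 (log2 fold 0.94 in both). That call was also lost with every cell at the same weight (0.90) and with T cell EFF mixed over libraries as the naive cells (0.99). The log2 fold of S1pr1 over T cell EFF was 5.92 without M6 and 5.30 with all libraries.

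Of the remaining list members, Il7r had 608, 701, 613 and 898 CPM in M1, M2, M5 and M6 and was 4.91-fold higher than in T cell EFF, 1.91-fold T cell MEM and 1.58-fold T cells. Foxp1, a repressor of T cell activation, had 299 CPM, 2.95-fold T cell EFF, 2.06-fold T cell MEM (not called without M6, at a log2 fold of 1.00) and 1.28-fold T cells. Igfbp4, an insulin-like growth factor binding protein (chr11:99041244-99054392), showed the largest fold over T cells among the 11 genes above the UMI limit. It had 415, 289, 277 and 60.7 CPM in M1, M2, M5 and M6 and was 25.8-fold higher than in T cells (95% counting interval 12.9 to 57.2), 32.8-fold higher than in T cell MEM and 11.1-fold higher than in T cell EFF. Only 13 of the 55 cells held an Igfbp4 UMI, with up to 10 UMIs in a cell, and the level in M6 was the lowest of the 4. Actn1, the cytoskeletal protein alpha-actinin-1, and Il6ra, the interleukin-6 receptor, each had 26 UMIs and were 4.37-fold and 3.41-fold higher than in T cells, with no T cells UMI in at least 1 library. Il6ra had 55.3, 82.5, 277 and 72.8 CPM in M1, M2, M5 and M6, and without M5 its log2 fold over T cells fell from 1.77 to 1.09.

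**Figure D1:**
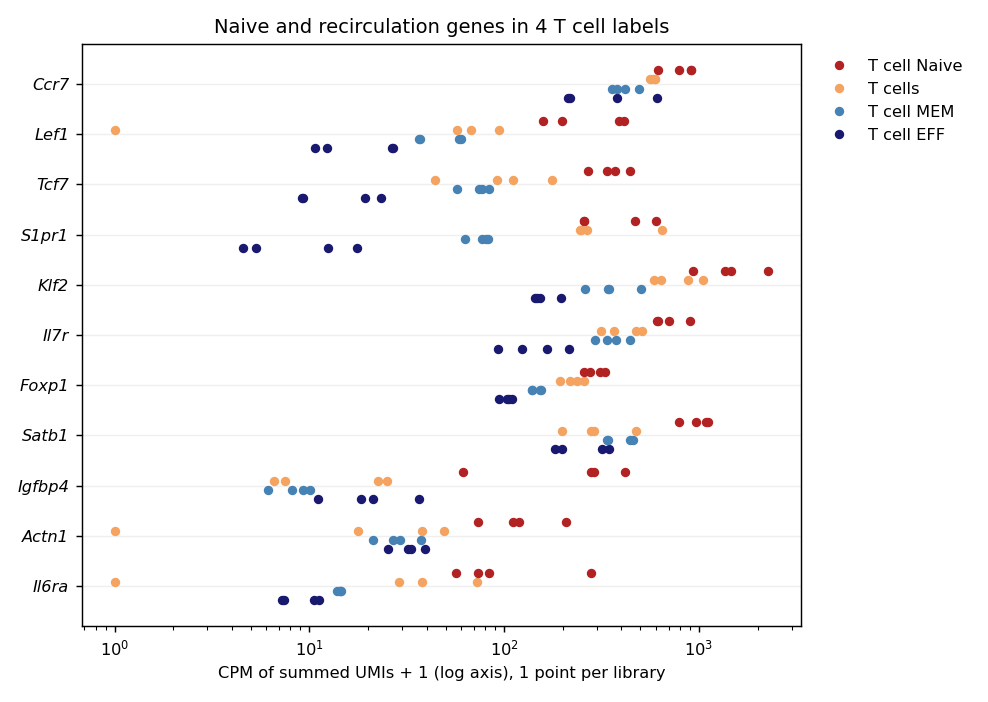
CPM of summed UMIs plus 1 (log axis) of the 11 genes of the naive and recirculation list with enough UMIs, 1 point for each of the 4 libraries in each of 4 T cell labels. The cells labelled T cell Naive lie to the right of T cell EFF for every gene, only just for Ccr7, and their ranges overlap with T cells for S1pr1, Klf2 and Il6ra.

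Genes of quiescence and survival followed at smaller folds. Of the 12 members 11 could be examined: 8 were at least 2-fold higher than in T cell EFF, 2 than in T cell MEM and 4 than in T cells (13.6%, 5.36% and 2.51% of all genes examined), and none was at least 2-fold lower in any of the 3. Of the 8 calls against T cell EFF 6 (Tob1, Foxo1, Pdcd4, Tsc22d3, Klf3 and Cdkn1b) passed the UMI limit only through the naive cells. Among members that passed in both labels 2 of 5 were called over T cell EFF, 1 of 9 over T cell MEM and 3 of 9 over T cells. Without the limit all 12 had a higher CPM than in T cell EFF and in T cells, and 11 than in T cell MEM. All 12 also had a higher CPM than in NKT. Of the 9 members that passed in both labels there, 0 were at least 2-fold higher than in NKT. Btg1, an antiproliferative factor, was the most abundant, with a UMI in all 55 cells and 2802 CPM (2584 to 3034), 3.04-fold T cell EFF, 1.85-fold T cell MEM and 1.74-fold T cells. Its level was 2626, 3278, 2650 and 2693 CPM in M1, M2, M5 and M6, a narrow range. Klf3 had 262 CPM and was 11.1-fold higher than in T cell EFF, 4.16-fold higher than in T cell MEM and 2.16-fold higher than in T cells, the last call being lost under 5 alternatives at log2 folds of 0.60 (without M6) to 0.99. Tsc22d3, the glucocorticoid-induced leucine zipper, was 3.53-fold, 2.29-fold and 2.08-fold higher than in those labels, the last not called without M1 or M2 (log2 folds 0.98 and 0.96). That call was also lost with every cell at the same weight (0.95) and with T cells mixed over libraries as the naive cells (0.96). It was lost too without cells of B cell UMIs or a high doublet score (0.87). Bcl2, which protects against apoptosis, had 359, 577, 316 and 121 CPM in M1, M2, M5 and M6 and was 2.90-fold higher than in T cell EFF and 3.13-fold higher than in T cells, but 1.83-fold T cell MEM (log2 fold 1.16 and called without M6). Txnip, an inhibitor of glucose uptake, was called only against T cells (2.02-fold), and not without M1 or M2 (log2 folds 0.94 and 0.85). Equal weights (0.77) and the library mixture (0.93) also ended that call, as did leaving out the cells richest in Lyz2 described below (0.88). Tob1, Foxo1, Pdcd4 and Cdkn1b, the cyclin-dependent kinase inhibitor p27, were called against T cell EFF alone at 2.50-fold to 3.24-fold.

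The effector list showed the opposite. All of its 19 members had a lower CPM in the naive cells than in T cell EFF and in T cell MEM, and Ifng, Ccl3, Prdm1 and Cxcr6 had 0 UMIs in the 55 cells. Of the 19, 15 could be examined, and 8 of these only because they are high in T cell EFF or T cell MEM, so that they had to be lower. The other 7 (Gzma, Gzmb, Ccl5, Id2, S100a4, S100a6 and Lgals1) passed in both labels, and all 7 were at least 2-fold lower than in T cell EFF, where 15.7% of all genes examined were, and than in T cell MEM, where 11.2% were. Against T cells 1 of 7 was lower, where 5.76% of all genes examined were, with a median log2 fold of -0.85, and 13 of the 19 members had a lower and 6 a higher CPM than in T cells. This count depended on few cells, with 4 of 6 lower without M2 and 4 of 7 without the 2 cells richest in Lyz2 described below. The cells labelled T cells were themselves low in these genes.

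Gzmb, granzyme B, had 138, 144, 39.6 and 97.1 CPM in M1, M2, M5 and M6, and 101 CPM overall (63.3 to 153). T cell EFF had 2437 CPM, T cell MEM 1601 and T cells 133, so the naive cells were 24.1-fold, 15.8-fold and 1.32-fold lower. Perforin (Prf1) was 21.5-fold lower than in T cell EFF and 11.7-fold lower than in T cell MEM, and Nkg7, a cytotoxic granule protein, 37.4-fold and 28.7-fold lower. With 0 UMIs set to 3 UMIs over the pooled label, Ifng (interferon gamma) was at least 27.9-fold lower than in T cell EFF and the chemokine receptor Cxcr6 at least 38.0-fold lower, bounds that weakened to log2 folds of -3.88 and -4.62 without M6. S100a4, a calcium-binding protein of motile and memory cells, was the member that was also lower than in T cells, at 175 CPM against 879 CPM (5.04-fold), 1359 in T cell MEM and 1635 in T cell EFF. Its log2 fold over T cells was -2.96 without M6 and -2.33 with all libraries. The chemokine Ccl5 was uneven, with 1852, 41.2, 277 and 60.7 CPM in M1, M2, M5 and M6. Of its 88 UMIs 66 came from 1 cell, so its 1.76-fold level over T cells rests on that cell, and without M1 it was lower than in T cells, at a log2 fold of -1.04, and without M6 higher, at 2.00.

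**Figure D2:**
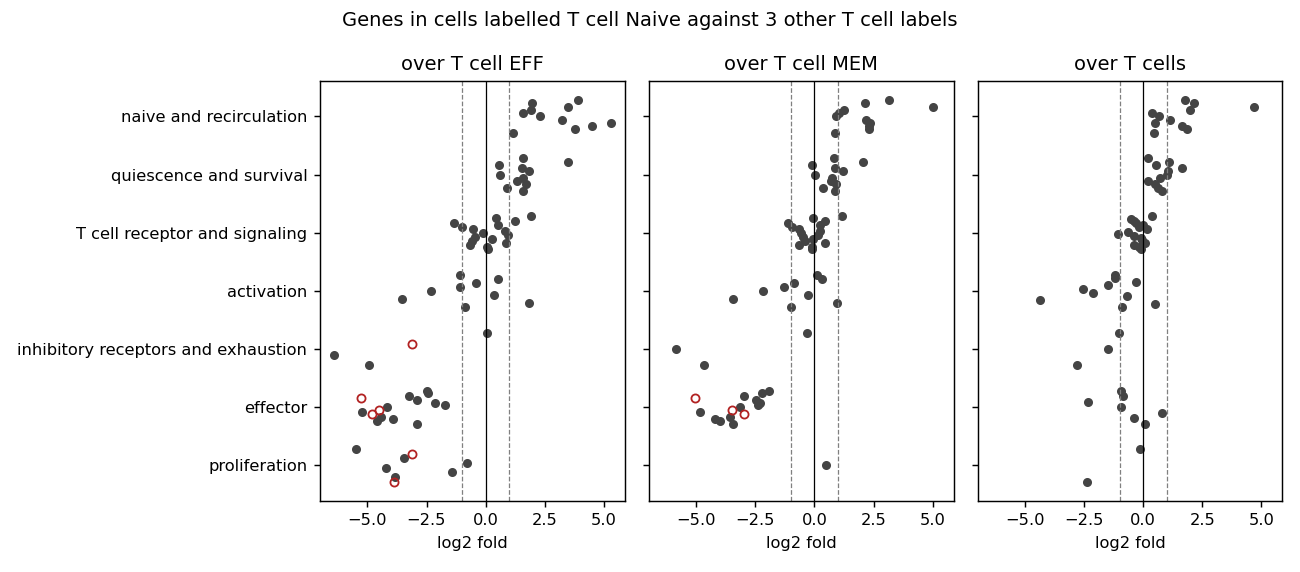
Log2 fold of each list gene in cells labelled T cell Naive over T cell EFF, T cell MEM and T cells, one point per gene examined, dashed lines at 2-fold. Open red points are genes at 0 UMIs in the naive cells, placed at the bound given by 3 UMIs. Naive genes lie at the right and effector genes at the left over T cell EFF and T cell MEM, while effector genes lie nearer to 0 over T cells.

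Of the 12 activation genes 11 had a lower CPM than in T cells, 8 than in T cell MEM and 7 than in T cell EFF. Of the 10 that could be examined against T cells 6 were at least 2-fold lower, where 5.76% of all genes examined were, and none was higher. Cd44, Il2ra and Batf were examined only through their level in T cells, and of the 7 that passed in both labels 4 were lower. Against T cell MEM 4 of 9 were lower (11.2% of all genes examined were) and none higher, and against T cell EFF 4 of 9 were lower (15.7%) and 1, Cd69, higher (13.6%). Among those that passed in both labels 2 of 6 and 3 of 5 were lower, Cd44 and Il2ra being examined only through the other label and Cd69 against T cell EFF only through the naive cells. The cells labelled T cells also held more regulatory T cell transcripts. Foxp3 was found in 54.2% of them and 14.5% of the naive cells (23.2% and 1.82% at 1000 UMIs), Ikzf2 (Helios) in 82.8% and 29.1% (61.1% and 16.4%), and the 6 genes of the regulatory T cell list summed to 1694 CPM in T cells and 519 CPM in the naive cells, from 111 in M1 to 849 in M6. Il2ra, Tnfrsf4, Tnfrsf18 and Ctla4 are known to be high in regulatory T cells, and the part of this difference in their folds against T cells was not tested. Il2ra, the high-affinity interleukin-2 receptor chain that resting T cells lack, had 2 UMIs in the 55 cells, 9.19 CPM (1.11 to 33.2) beside 188 CPM in T cells, a ratio of 0.0488 (0.00588 to 0.179), 101 CPM in T cell MEM and 105 CPM in T cell EFF. With so few UMIs its log2 fold over T cells ranged from -5.11 without M5 to -3.66 without M6. The costimulatory receptors Tnfrsf4 (OX40) and Tnfrsf9 (4-1BB) had 161 and 184 CPM and were 5.83-fold and 4.38-fold lower than in T cells, Tnfrsf9 reaching a log2 fold of -2.95 without M6. Egr1 and Batf, transcription factors induced by receptor signals, were 2.29-fold and 2.27-fold lower than in T cells. The call of Egr1 over T cells was lost under 5 alternatives, among them leaving out M2 (log2 fold -0.59) and giving every cell the same weight (-0.04), and that of Batf was lost without M2 and without M6 (-0.92 and -0.84). Cd44, which marks antigen-experienced cells, had 82.7 CPM and was 1.84-fold lower than in T cells, 2.02-fold lower than in T cell MEM and 1.81-fold lower than in T cell EFF, and 13 cells held a UMI of it. The call against T cell MEM was lost without M2 (log2 fold -0.83) and under 5 other alternatives (-0.60 with every cell at the same weight), and without M5 those against T cells and T cell EFF were gained (-1.08 and -1.03). Cd69, an early activation antigen, was 3.53-fold higher than in T cell EFF, with 55.3, 103, 494 and 291 CPM in M1, M2, M5 and M6. The M1 and M2 cells were low for it and the M5 and M6 cells high. Over T cell MEM the log2 fold of Cd69 was 0.97, and a call was gained without M1, M2 or M6 (1.18, 1.21 and 1.03). Totals that leave out ribosomal protein and mitochondrial genes also gained it (1.09). So did leaving out cells over 10% mitochondrial UMIs (1.00) or the naive cells with Foxp3 (1.05). Icos, the most abundant member, had 537 CPM and was within 2-fold of all 3 labels. An Icos UMI was held by 7 of the 8 cells with Foxp3 described below and by 31 of the other 47. Whether the cells labelled T cell Naive had met antigen was not tested.

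Both targets of the antibody were lower in the naive cells than in cells labelled T cells. Pdcd1 had 4 UMIs, 1 in each of 4 cells, all in M6: 0 CPM in M1, M2 and M5 and 48.5 CPM in M6. Overall it had 18.4 CPM (5.01 to 47.1) beside 130.0 CPM in T cells, 468 in T cell MEM and 567 in T cell EFF, 7.07-fold, 25.5-fold and 30.9-fold lower, having been examined only through its level in those labels. Tnfrsf18 was present in 30 of the 55 cells, at 304, 247, 297 and 218 CPM in M1, M2, M5 and M6. Its 257 CPM (194 to 334) were 2.82-fold lower than in T cells (725 CPM), and 1.80-fold and 1.32-fold lower than in T cell MEM and T cell EFF, which did not reach 2-fold. Both folds against T cells stand beside the difference in regulatory T cell transcripts given above. A UMI of both targets was found in 2 cells, both in M6.

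Among the other inhibitory receptors Havcr2 (TIM-3), Tigit, Entpd1 (CD39) and Cd160 had 0 UMIs in the naive cells. Only Havcr2 against T cell EFF had a level at which 20 UMIs were expected, and it was at least 8.71-fold lower. Lag3 had 1 UMI, 4.59 CPM (0.116 to 25.6) beside 392 in T cell EFF and 269 in T cell MEM. Without M6, which leaves fewer UMIs, the bound for Havcr2 against T cell EFF was a log2 fold of -2.46. Lag3 then had no UMI left, and its bounds were log2 folds of -4.16 over T cell EFF and -3.79 over T cell MEM. Tox, a factor of exhausted T cells, had 78.1 CPM and was 2.04-fold lower than in T cells but within 2-fold of the other labels, a call lost without M1 and without M5 (log2 folds -0.77 and -0.86). The Tox call was also lost with totals that leave out ribosomal protein and mitochondrial genes (-0.91) and with median-of-ratios scaling (-0.93). With T cells mixed over libraries as the naive cells it was lost too (-0.87). Ctla4 was uneven, at 193, 41.2, 277 and 594 CPM in M1, M2, M5 and M6, and its 331 CPM were 2.85-fold lower than in T cells, 1.24-fold lower than in T cell MEM and 1.04-fold T cell EFF. Without M6 it was called against T cell MEM too (log2 fold -1.24) and reached -2.40 against T cells. The cells behind this level are described with Foxp3 below.

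In the T cell receptor and signaling list 2 of 17 members were at least 2-fold higher and 2 lower than in T cell EFF (13.6% and 15.7% of all genes examined), 1 higher and 1 lower than in T cell MEM (5.36% and 11.2%), and 0 of 16 higher and 1 lower than in T cells (2.51% and 5.76%), shares near those of all genes. The median log2 folds were 0.10, -0.11 and -0.19. Cd3d had 868 CPM and Cd3e 464 CPM, neither differing by more than 1.135-fold from any of the 3 labels, Cd3g had 1006 CPM, up to 1.60-fold lower, and Cd247 175 CPM, up to 1.80-fold higher. Trac had 363 CPM, Trbc1 974 and Trbc2 1369, the largest difference of the 3 being 1.49-fold. Among the 14 members that passed in both labels against T cell EFF 1 was higher and 1 lower. Called higher in naive cells were Bcl11b, a T cell identity factor, at 266 CPM (3.80-fold T cell EFF and 2.25-fold T cell MEM) and Cd2 at 772 CPM (2.36-fold T cell EFF), Bcl11b being examined against T cell EFF only through the naive cells. Thy1 at 198 CPM was 2.52-fold lower than in T cell EFF and 2.17-fold lower than in T cell MEM, Zap70, a kinase of the receptor, 2.01-fold lower than in T cell EFF with 14 UMIs (examined only through T cell EFF, and not called without M2 or M5, at log2 folds of -0.71 and -0.85), and Cd5, whose level is known to follow receptor signal strength, 2.07-fold lower than in T cells (not called without M2 or M5, at -0.91 in both). With totals that leave out ribosomal protein and mitochondrial genes the calls of Zap70 (-0.90), Cd5 (-0.94) and Thy1 over T cell MEM (-0.99) were lost. With median-of-ratios scaling those of Zap70 and Cd5 were lost (-0.95 for both). The other members, Lck, Lat, Cd6, Cd27 and Cd28, had between 142 and 473 CPM and passed 2-fold in no comparison.

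Of the 9 cytokine receptors examined 3 were higher and 1 lower than in T cell EFF (13.6% and 15.7% of all genes examined). Against T cell MEM 2 were higher and 1 lower (5.36% and 11.2%), and against T cells 1 and 1 (2.51% and 5.76%). Among members that passed in both labels 1 was higher and 1 lower in each comparison. Il2rb was called lower and Il4ra higher than in all 3 labels, and Il6st higher than in T cell EFF and T cell MEM alone. Il6st passed the UMI limit only through the naive cells in each comparison, and Il4ra did so against T cell EFF. Il2rb, the interleukin-2 and interleukin-15 receptor chain that rises on memory and effector cells, had 91.9 CPM (56.1 to 142) and was 2.99-fold lower than in T cells, 6.76-fold lower than in T cell MEM and 7.53-fold lower than in T cell EFF, below all 3 in each library. Il4ra had 359, 371, 119 and 218 CPM in M1, M2, M5 and M6 and was 2.05-fold, 2.55-fold and 4.30-fold higher than in the same labels, with the call over T cells lost without M1 and without M2 (log2 folds 0.90 and 0.72). Equal weights of cells also ended that call (0.87). So did leaving out cells of B cell UMIs or a high doublet score (0.97) or cells over 10% mitochondrial UMIs (0.99). Il6st, the shared signal chain gp130, was 8.19-fold higher than in T cell EFF, 5.78-fold higher than in T cell MEM and 1.34-fold T cells. Ifngr1, the most abundant of the list at 1093 CPM, was 2.07-fold higher than in T cell EFF, but not without M1 or M6 (log2 folds 0.95 and 0.92). The other 5 of the 9 receptors examined were within 2-fold of all 3 labels.

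Of the 13 other chemokine receptors and adhesion genes Ccr4, Cxcr5 and Cx3cr1 had 0 UMIs. Ccr2, a receptor of inflamed tissue, had 3 UMIs, 13.8 CPM (2.84 to 40.3) beside 193 CPM in T cells and 232 in T cell MEM. Cxcr3 had 59.7 CPM and was 2.33-fold lower than in T cells. Itgae, an integrin of tissue-resident cells, had 1 UMI beside 101 CPM in T cells. The integrin Itgal was 2.68-fold lower than in T cell EFF and 2.96-fold lower than in T cell MEM. Itga4 had 82.9, 268, 336 and 400.3 CPM in M1, M2, M5 and M6 and was 5.42-fold higher than in T cell EFF and 2.99-fold higher than in T cell MEM, with M1 the lowest library. Cxcr4 (5.32-fold), Itgb7 (2.77-fold) and S1pr4 (2.15-fold) were called higher than in T cell EFF alone. These 3 and Itga4 passed the UMI limit against T cell EFF only through the naive cells, and Ccr2, Cxcr3, Itgae and Itgal only through the label where they are high. S1pr4 was not called without M1 or M6 (log2 folds 0.99 and 0.71). Without M6 the log2 fold of Ccr2 was -2.97 over T cells and -3.24 over T cell MEM. The log2 fold of Itgae over T cells was -4.46, and -3.27 without M6, at a level not distinguishable from absent. Without M5 it had no UMI left, and the bound was -2.54. Itgb1 was the most abundant member at 409 CPM.

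Of 12 interferon-stimulated genes 9 were examined. Against T cell EFF 2 were higher and 1 lower (13.6% and 15.7% of all genes examined), against T cell MEM 2 were lower (11.2%) and against T cells 1 was lower (5.76%), with medians of 0.69, -0.03 and -0.67 on the log2 scale. Ly6a (Sca-1) was the one lower in all 3 comparisons, at 133 CPM beside 552 in T cells, 678 in T cell MEM and 605 in T cell EFF. Its log2 fold over T cell MEM was -2.35, and -3.04 without M6. Its level was 55.3, 20.6, 178 and 206 CPM in M1, M2, M5 and M6. Ifi27l2a, the most abundant, had 663.5, 989.5, 2571 and 1929 CPM in M1, M2, M5 and M6. Both genes were higher in M5 and M6 than in M1 and M2. Igtp and Ifit1 were 2.57-fold and 2.04-fold higher than in T cell EFF, and Irf7 was 2.12-fold lower than in T cell MEM. Ifit1 passed the UMI limit there only through the naive cells and Irf7 only through T cell MEM. Ifit1 was not called without M5 or M6 (log2 folds 0.74 and 0.83), nor Irf7 without M1 or M5 (-0.92 and -0.86), while Irf7 reached -1.72 without M6. Without the cells with Foxp3 described below Igtp was not called over T cell EFF (0.93), and Ifit1 stood at -0.12. With every cell at the same weight Ifit1 was not called over T cell EFF either (0.93).

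Over all genes examined, 270 were higher and 312 lower in the naive cells than in T cell EFF, 101 and 212 than in T cell MEM, and 47 and 108 than in T cells, so the fewest were called against T cells. Higher genes were 46.4% of the calls against T cell EFF, 32.3% against T cell MEM and 30.3% against T cells. With totals that leave out ribosomal protein and mitochondrial genes these shares became 53.8%, 44.0% and 42.5%, so that more genes were called higher (318) than lower (273) against T cell EFF, and with median-of-ratios scaling 49.8%, 33.4% and 40.8%. The first of these scalings moved the median log2 fold by 0.11 over T cell EFF, 0.12 over T cell MEM and 0.11 over T cells. Across 1568 genes the log2 CPM of the naive cells correlated with T cells at Pearson's r = 0.931, with NKT at 0.907, with T cell MEM at 0.891, with T cell EFF at 0.821 and with B cells at 0.758, a description over genes that share libraries and depth.

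Ranked by the smallest of the 3 folds among genes found in at least 20% of the cells, the 15 leading genes were Igfbp4, Actn1, Ndrg3, Lef1, Rflnb, Il6ra, Tcf7, Kif1b, Tubb2a, Mcmbp, Satb1, Klf2, Klf3, Twf2 and Dusp10. Of these 7 are members of the naive and recirculation list and Klf3 of the quiescence list. The lists were chosen with earlier results of these data known, and the ranking uses the same values, so this overlap is a description. Dusp10, a phosphatase that restrains JNK and p38 kinases, was found in 41 cells at 636, 515, 475 and 813 CPM in M1, M2, M5 and M6. Its 638.5 CPM overall were 2.12-fold, 5.0-fold and 9.15-fold higher than in T cells, T cell MEM and T cell EFF, the first not called without M6 (log2 fold 0.82). Kif1b, a kinesin motor, was found in 29 cells at 257 CPM and was 2.89-fold, 5.47-fold and 8.07-fold higher than in those labels. Rflnb, an actin regulator, was 3.54-fold, 15-fold and 81.4-fold higher, with 470.0 CPM in M1 beside 41.2 in M2, 79.1 in M5 and 97.1 in M6, so M1 led its level, and without M1 the log2 folds over T cell MEM and T cell EFF fell from 3.90 and 6.35 to 3.08 and 5.48. Ndrg3 (3.63-fold to 4.58-fold), the tubulin Tubb2a (2.87-fold to 4.98-fold), Mcmbp (2.47-fold to 2.73-fold), which binds the replication helicase, and Twf2 (2.15-fold to 2.32-fold), an actin-binding protein, had 22 to 32 UMIs each. For Tubb2a the naive cells exceeded T cells in 2 of 4 libraries, and its log2 fold over T cells was 0.81 without M1 and 2.22 without M6. Without M2 the log2 folds of Ndrg3 were 1.26 to 1.51. Twf2 was not called over T cells without M5 (0.72), nor over T cell EFF and T cell MEM without M1 (0.91 and 0.92) or M5 (0.85 and 0.99), and its log2 fold over T cells was 1.87 without M6.

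The 15 leading genes on the lower side were Il2ra, Serpina3g, Ccrl2, Pdcd1, S100a4, Pglyrp1, Cxcl2, Tnfrsf9, Fam46a, Ly6a, Plec, Runx2, Ncf4, Itgav and Dusp4. Il2ra, Serpina3g and Ccrl2 had 3 UMIs or fewer, so their order among themselves is not resolved. Several are known to be induced by T cell activation, such as Il2ra, Pdcd1, Tnfrsf9 and the phosphatase Dusp4, which was 5.08-fold lower than in T cells (log2 fold -2.34, and -3.59 without M5). The folds of these genes against T cells stand beside the difference in regulatory T cell transcripts given above. The part of activation or of that difference in them was not tested. Ccrl2, an atypical chemokine receptor, had 0 UMIs and was at least 7.57-fold lower than in T cells, at least 11.9-fold lower than in T cell MEM and at least 9.77-fold lower than in T cell EFF, bounds that weakened to log2 folds of -1.97 without M5 and -2.82 and -2.59 without M6. Serpina3g, a protease inhibitor of activated cells, had 3 UMIs, 13.8 CPM (2.84 to 40.3) beside 107 CPM in T cells. The chemokine Cxcl2 had 41.3 CPM beside 196 in T cells and 697 in T cell MEM. Runx2 was 3.64-fold lower than in T cells (log2 fold -1.87, and -4.06 without M6) and Itgav, the integrin alpha-V chain, 3.48-fold lower. Pglyrp1, Fam46a, Plec and Ncf4 were between 3.54-fold and 7.11-fold lower than in T cells.

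Division transcripts were fewer than in T cell EFF. Of the 12 proliferation genes 10 also had a lower CPM than in T cell MEM, and Hmgb2 and Birc5 a higher one. The 12 genes summed to 799 CPM in the naive cells (684.5 of it Hmgb2), 732 in T cell MEM, 1237 in T cells and 3004 in T cell EFF. Of these genes Mki67, Cdk1, Ccnb2 and Rrm2 had 0 UMIs, and a count of 0 in 55 cells allows a share of cells with a UMI of up to 6.49% (upper exact bound). All 12 had a lower CPM than in T cell EFF. Of the 8 that could be examined 7 were called lower (15.7% of all genes examined were), but these 7 were examined only because they are high in T cell EFF. Top2a was 14.4-fold, Stmn1 18.6-fold and Mki67 at least 14.6-fold lower, with a log2 fold of -4.87 for Stmn1 and a bound of -3.21 for Mki67 without M6. Top2a was also 5.17-fold lower than in T cells. Hmgb2, which resting lymphocytes express as well, was the most abundant member at 684.5 CPM and within 2-fold of all 3 labels.

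Ribosomal protein genes took a large share of the naive cells' UMIs. The median share was 24.9% (quartiles 20.7 and 29), beside 18.2% in T cells, 20.1% in T cell MEM and 20.3% in T cell EFF. By library the median was 26.1%, 28.6%, 24.1% and 22.7% in M1, M2, M5 and M6, in each case above the medians of all other labels plotted for that library. Gene by gene the difference was small, with a median log2 fold over 77 ribosomal protein genes of 0.26 over T cell EFF, 0.30 over T cell MEM and 0.36 over T cells. Mitochondrial transcripts made up a median of 4.95%, beside 5.07%, 4.21% and 4.07% in T cells, T cell MEM and T cell EFF. Naive cells also had fewer UMIs per cell than these labels, and the part of depth in the ribosomal share was not tested.

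**Figure D3:**
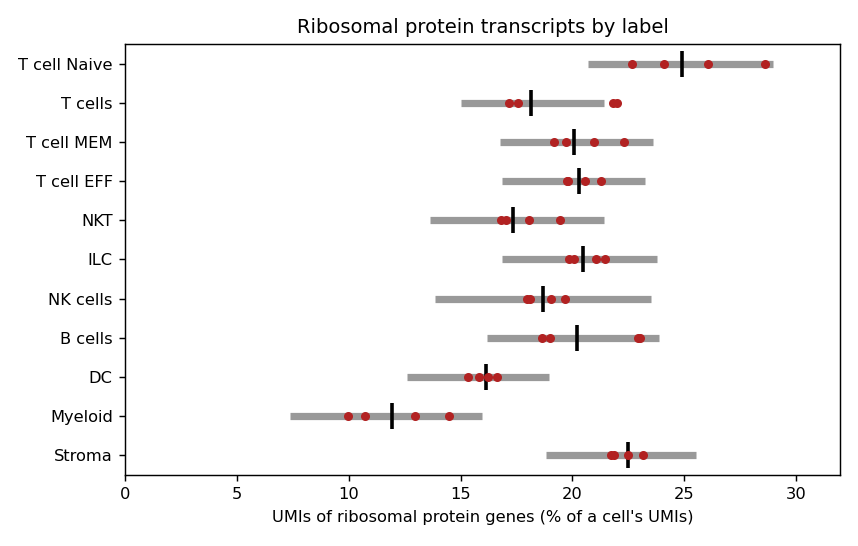
Share of each cell's UMIs from ribosomal protein genes, by label: black ticks are medians over cells, grey bars the quartiles, and red points the medians of the 4 libraries. Cells labelled T cell Naive have the highest median, 24.9%, with library medians from 22.7% to 28.6%.

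The cells varied among themselves. Without thinning, a cell held UMIs of 2 to 13 of the 15 naive list genes, with a median of 7. At 1000 UMIs a cell the median was 7 naive list UMIs (quartiles 4 and 9, range 1 to 14) and 1 effector list UMI (range 0 to 11). The medians for the naive list were 3 in T cells, 2 in T cell MEM and 1 in T cell EFF, and for the effector list 3, 10 and 14. Ranges overlapped for both lists, so single cells at this depth were not separated by either.

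**Figure D4:**
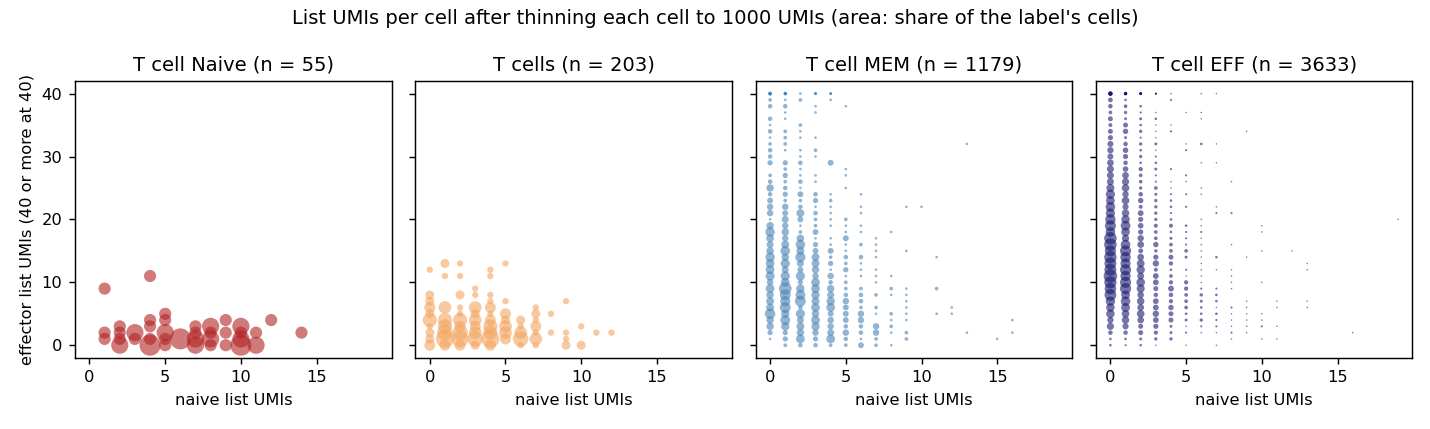
UMIs of the effector list against UMIs of the naive and recirculation list per cell after each cell was thinned to 1000 UMIs, in 4 labels. The area of a point is the share of the label's cells at that pair of counts. Naive cells have medians of 7 naive and 1 effector UMIs, T cell EFF medians of 1 and 14.

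By lineage the cells were mostly on the CD4 side. A Cd4 UMI without Cd8a or Cd8b1 was found in 30 cells: M1 and M2 held 6 each, M5 held 5 and M6 held 13. A Cd8a or Cd8b1 UMI without Cd4 was found in 4 cells, 2 in M1 and 2 in M6, no cell held both, and 21 held neither. Cd4 had 276, 144, 98.9 and 315 CPM in M1, M2, M5 and M6, and its 220.5 CPM (163 to 292) were 1.15-fold T cells, 3.21-fold T cell MEM and 12.3-fold T cell EFF. Cd8a had 2 UMIs and Cd8b1 8, at 9.19 and 36.7 CPM beside 597 and 476 CPM in T cell EFF and 1.71 and 7.70 CPM in T cells. Runx3, a CD8 lineage factor that CD4 effector cells also use, had 179 CPM beside 313 in T cell EFF. Of the CD4 list Cd40lg had 3 UMIs and Zbtb7b, the CD4 lineage factor ThPOK, 1 UMI. The cells with neither coreceptor had a median of 3577 UMIs, and after thinning to 1000 UMIs Cd4 was present in 22.7% of T cells too, so a missing Cd4 UMI at this depth does not show a cell without CD4. Fold changes against T cell EFF and T cell MEM, whose Cd8a levels were 597 and 424 CPM, compare a mostly CD4 with a mostly CD8 set of cells, and lineage and naive state cannot be told apart in them.

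A subset of 8 cells held a UMI of Foxp3, the regulatory T cell factor, 2 in M5 and 6 in M6 and none in M1 or M2, and 7 of these also held Cd4. Foxp3 was found in 14.5% of the naive cells (6.49 to 26.7), 54.2% of T cells and 0 of 124 B cells without thinning. All 8 cells held Ikzf2, at 1468 CPM (1089 to 1935), beside 8 of the other 47 cells and 142 CPM (92.5 to 207). Ctla4 was found in 7 of the 8 at 1233 CPM (889 to 1667) and in 12 of the 47 at 163 CPM (110 to 233). Tnfrsf4 had 323 CPM (161 to 578) beside 131 (83.8 to 194.5) and Tnfrsf18 323 (161 to 578) beside 245 (179 to 328), with overlapping intervals, and Il2ra had 1 UMI in the 8 cells (29.4 CPM) and 1 in the others. Itgb1 had 851 CPM (570.2 to 1223) beside 327 (249 to 421) and Ccr7 1585 (1191 to 2068) beside 648 (537 to 776). Klf2 went the other way, at 440.3 CPM (246.5 to 726) beside 1672 (1490 to 1870), Lef1 had 88.1 (18.2 to 257) beside 294 (221 to 384), and Igfbp4 was found in 0 of 8 and 13 of 47 cells. The intervals separated for Ikzf2, Ctla4, Itgb1, Ccr7 and Klf2 but not for Tnfrsf4, Tnfrsf18 and Lef1. All 8 cells with Foxp3 lay in M5 and M6, while the other 47 include every cell of M1 and M2. The part of library in these differences was not tested. The cells with Foxp3 held 42 of the 72 Ctla4 UMIs of the naive cells. Cells were split here by Foxp3 itself, so these are values without a test. Without the 8 cells the naive list counts were 10 of 11 over T cell EFF, 9 over T cell MEM and 7 over T cells, and Ccr7 fell below 2-fold over T cell EFF at a log2 fold of 0.85. Against T cells the naive cells as a whole had 4.01-fold less Foxp3, 3.39-fold less Ikzf2 and 2.68-fold less Tnfrsf1b (log2 folds of -2.77 for Foxp3 and -2.74 for Ikzf2 without M6), and Il10 and Ccr8 had 0 UMIs.

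**Figure D5:**
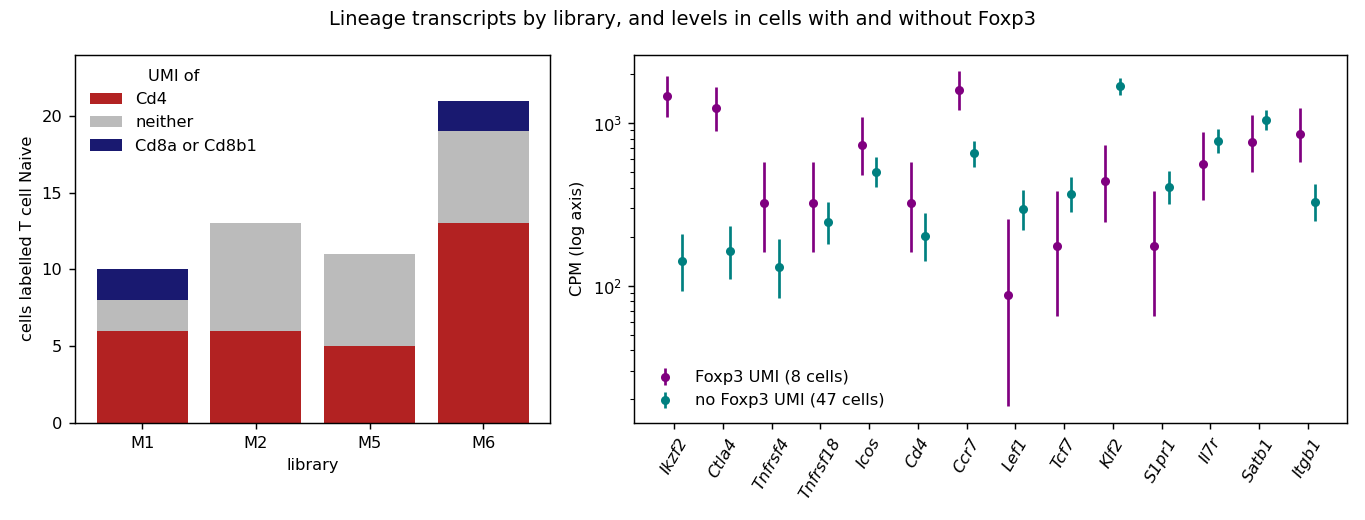
Left, cells labelled T cell Naive by library, split by a UMI of Cd4, of Cd8a or Cd8b1, or of neither. Right, CPM (log axis) with exact 95% Poisson intervals in the 8 cells with and the 47 cells without a Foxp3 UMI. Ikzf2, Ctla4 and Ccr7 are higher and Klf2 is lower in the cells with Foxp3, which all lie in M5 and M6.

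Markers of other cell types were sparse. Of 6 B cell genes 5 had 0 UMIs (Cd79a, Cd79b, Ms4a1, Ighd and Ebf1), and Ighm had 18 UMIs in 10 cells. Of 8 dendritic cell genes 7, of 6 mast cell and basophil genes 5 and all 4 erythroid genes were at 0. Stromal and tumor genes summed to 142 CPM beside 124 in T cells and 2139 in Stroma. The NK cell list summed to 262 CPM, beside 121 in T cells, 1784 in T cell MEM and 1634 in T cell EFF, with Fcer1g, a signal adaptor of innate cells, 2.29-fold higher than in T cells, examined only through the naive cells and not called without M2 (log2 fold 0.72). That call was also lost without the cells richest in Lyz2 described below (0.75) and with every cell at the same weight (0.84). Of the ILC2 list Il13, Il5, Il17rb and Klrg1 were at 0, and Gata3 and Il1rl1 were lower than in T cells, at 45.9 beside 184 CPM and 13.8 beside 147 CPM, both examined only through T cells. The log2 fold of Il1rl1 was -4.55 without M2 and -2.72 without M6. A gamma delta receptor constant chain UMI was found in 4 cells. Of 8 Trdc UMIs 6 came from 1 cell, and the 5 UMIs of Zbtb16, the innate-like T cell factor PLZF, came from 1 cell in M5. Of the gamma delta and innate-like list Il17a, Il23r, Sox13, Blk and Cd163l1 were at 0.

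Myeloid transcripts were found at a higher level, mostly in 2 cells. Csf1r, Adgre1 and Itgam were at 0, but the 10 myeloid genes summed to 772 CPM, beside 255 in T cells, 995 in T cell MEM, 689 in T cell EFF and 11260 in Myeloid. Of the 168 UMIs behind this sum 101 came from 2 cells, and the other 53 cells had 323 CPM. Lyz2, lysozyme, was 4.17-fold higher than in T cells, and C1qa, a complement chain of macrophages, 5.12-fold higher, C1qa being examined only through the naive cells. Without M2 their log2 folds were 1.41 and 1.30. Lyz2 was found in 17 of the 55 cells, but 67 of its 97 UMIs came from 2 cells, 39 in a cell of M2 and 28 in a cell of M6, whose doublet scores were 0.039 and 0.105. Without those 2 cells Lyz2 was not called over T cells (log2 fold 0.44). The naive list counts without them were unchanged at 11, 9 and 7, and effector genes lower than in T cells were 4 of 7 instead of 1. The part of free or engulfed myeloid RNA in these values was not tested.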

How the data were processed

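Single-cell 3′ libraries (10x Chromium, v3 chemistry) were counted by the authors with Cell Ranger 3.0.2 on mm10 (GRCm38.93), keeping cells above 500 UMIs. The deposited values are UMI counts without normalization for 31053 genes in 33961 cells, with each cell's total counts of UMIs and genes, one of 4 library labels and one of 12 cell type labels, set by the authors as the best correlated ImmGen reference. No removal of doublets or free RNA was described.

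Counts were summed over cells of a label, scaled to CPM and divided between labels. Genes needed 20 UMIs, observed or expected, calls needed 2-fold, and 0 UMIs were set to 3. No test was run, because no library label names a sample or a treatment and cells are not replicates. Intervals are exact and 95% (Poisson, Clopper-Pearson). Cells were thinned without replacement to 1000 UMIs. Doublet scores came from scrublet in scanpy 1.11.5 (expected rate 0.06), and no cell was removed. The fold step was tested on simulated counts. Scripts ran on scipy 1.17.1 and pandas 2.3.3 under Python 3.11.15, with numpy 2.4.6.

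Members and the 22 gene lists were chosen with earlier results of these data known. Genes named were all members of the naive, T cell receptor and coreceptor lists, both antibody targets, members of other lists that passed 2-fold or were most abundant, and the 15 genes leading on each side by the smallest of the 3 folds (higher ones in at least 20% of cells and 3 libraries). Zbtb16, Trdc, Ighm, genes named at 0 and the Foxp3 split were added after their values were seen. A few list genes are not reported here and were left out of the lists. The most abundant gene of a list is the one with the highest CPM, 3′ UMI counts not growing with transcript length. Alternatives covered scaling, low-count filters, weight of cells, library mixture, cell exclusions, thinning and leaving out each library.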

Additional observations from a re-analysis of the deposited data

How the results depend on the processing

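Of 3906 recomputed log2 folds of 279 gene comparisons, 3728 kept their side of 2-fold, 105 fell below 2-fold (29 genes) and 67 rose above it (22 genes). The 3728 include folds within 2-fold that changed sign. They also include folds under the low-count filters, which change the genes examined but cannot move a fold. Another 6 (5 genes) reversed, being past 2-fold before or after. Ccl5 did so over T cells, at -1.04 without library M1. Without the cells with Foxp3, Ikzf2 and Ifit1 reversed over T cell EFF (-1.12 and -0.12) and Ifit1 over T cells (-1.14). Without the 2 cells richest in Lyz2, Lyz2 reversed over T cell EFF (-1.37) and C1qa over T cell MEM (-1.21). Both exclusions were chosen after seeing the data. Among losses not tied to a library, Klf2 fell below 2-fold over T cells with every cell at the same weight, with T cells mixed over libraries as the naive cells and without cells of B cell UMIs or a high doublet score (0.87, 0.96 and 0.88), Klf3 (0.88, 0.88 and 0.85) likewise, and Dusp10 with equal weights and without the B cell or doublet cells (0.79 and 0.91). With 5 UMIs required, higher and lower genes became 753 and 1064 over T cell EFF, 418 and 789 over T cell MEM, and 351 and 617 over T cells, and with no filter 1691 and 1594, 1449 and 1240, and 1229 and 1115, since more genes were examined. Naive list genes higher than in T cells became 11 of 15 under both filters. Effector list genes lower than in T cells became 3 of 13 and 4 of 19 under these filters, and of 7 genes 2 with the T cells mixed over libraries as the naive cells, 2 without cells over 10% mitochondrial UMIs and 4 without the 2 cells richest in Lyz2. Leaving out each library gave 167 to 241 higher and 188 to 269 lower genes over T cell EFF (both lowest without M6, at 167 and 188), 72 to 103 and 149 to 189 over T cell MEM, and 30 to 45 (30 without M2) and 78 to 107 over T cells. It gave 1 to 4 effector genes lower than in T cells (of 6 examined, 2 without M1, 4 without M2 and 2 without M5), 9 to 11, 8 to 9 and 6 to 7 naive genes, and a share of 0.129% to 0.190% of all cells.

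The share of cells was 0.94% of T cell labels. Presence followed depth: Il7r was found in 69.8% of cells at 2000 UMIs and 81.8% unthinned, Cd4 in 35.8% and 54.5%, Cd247 in 39.6% and 50.9%, Ccr7 in 78.2% unthinned, and Foxp3 in 1.82% at 1000 UMIs. At 2000 UMIs 2 of the 55 cells were too shallow. No paired analysis was possible because the libraries could not be matched to samples, so that the table counts as 1 sample and no result comes from a test. The labels compared lie in the same 4 libraries, and in how many of these the naive cells were higher is given beside single genes. With 55 cells, a gene under 3 UMIs in sum (13.8 CPM) was not distinguishable from absent.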

Other observations

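Cells with a similar transcript pattern were also found under other labels. A rule chosen after the data were seen, at least 7 naive list UMIs, 0 effector list UMIs and a CD3 chain UMI after thinning to 1000 UMIs, picked 20 of the 33961 cells. Of these 7 were labelled T cell Naive, 5 NKT, 4 T cells, 2 T cell MEM, 1 T cell EFF and 1 ILC. They were 12.7% of the cells labelled T cell Naive (5.27 to 24.5), 1.97% of T cells (0.539 to 4.97) and 0.640% of NKT (0.208 to 1.49).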
